A study of Homo sapiens with 6 samples.

Results

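SNAP25 and 9 other SNARE genes (SNAP23, SNAP29, SNAP47, STX1A, STX3, STX4, VAMP2, VAMP3 and VAMP8) were followed in bulk RNA-seq of HK-2 cells, an immortalised line from the human proximal tubule. They are 10 of the 16116 genes in the deposited table, taken by gene symbol. SNAP25 was picked for its large difference between the KO and WT libraries, so for these 10 genes the KO and WT values are a description and carry no test. The study holds 3 FAM134B-KO libraries (genotype label FAM134B-KO, called KO here) and 3 WT libraries (genotype label WT) of HK-2 cells, with no treatment, time or dose in the labels. The sample labels and the title name FAM134B (current symbol RETREG1, an endoplasmic reticulum receptor for autophagy), whereas the design text names TAX1BP1. How the gene was disrupted, and whether the KO libraries come from 1 clone, is not given in the sources used here. Nothing says that the libraries of a group are separate cultures, so any p-value speaks only of the library-to-library spread, which may be technical.

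SNARE proteins drive the fusion of a vesicle with its target membrane. A vesicle SNARE (a VAMP protein) zips into a coiled bundle of helices with target SNAREs, a syntaxin and a SNAP protein, and the bundle pulls both membranes together. SNAP25 with STX1A and VAMP2 is the set known from neurotransmitter release, whereas SNAP23, STX3, STX4, VAMP3 and VAMP8 serve the plasma membrane and endosomes of many other cells, epithelia included. SNAP29 and VAMP8 also join STX17 in the fusion of autophagosomes with lysosomes.

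Mutually exclusive forms of exon 5, 5a and 5b, exist in SNAP25, and they are printed because most SNAP25 reads in KO cells were assigned to the model that carries the first of them. Form 5b predominates in the adult brain, and 5a is known from the embryonic brain and from neuroendocrine cells. Capitals mark the 31 of 118 bases that differ between the 2 exons, which are 73.7% identical. The sequences come from GENCODE transcripts on GRCh38, plus strand, 5′ to 3′, at chr20:10292882-10292999 for 5a and chr20:10293161-10293278 for 5b. Both lie within the coding part of the gene.
SNAP25 exon 5a: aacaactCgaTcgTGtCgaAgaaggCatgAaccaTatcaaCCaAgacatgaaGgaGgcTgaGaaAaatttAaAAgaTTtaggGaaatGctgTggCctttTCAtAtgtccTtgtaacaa
SNAP25 exon 5b: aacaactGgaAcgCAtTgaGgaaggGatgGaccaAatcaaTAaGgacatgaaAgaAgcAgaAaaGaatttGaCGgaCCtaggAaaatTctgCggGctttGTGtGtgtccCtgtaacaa

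The libraries held 16796964 to 17127468 estimated reads each. A gene with 3 reads, taken as the floor, lies at 0.175 to 0.179 CPM (reads relative to library size, scaled with TMM factors). RETREG1 (NCBI gene 54463) had 33, 27 and 28 reads in the KO libraries, against 72, 80 and 73 in the WT libraries, and fell by 1.33 on the log2 scale (KO over WT; SE 0.18, adjusted p = 5.31e-07 in edgeR's quasi-likelihood test). TAX1BP1 averaged 90.6 ± 7.92 TPM in KO and 95.8 ± 4.86 TPM in WT (SD, n = 3 each; TPM is reads per transcript length, scaled to the same total in each library), and a log2 change of -0.05 that did not pass in edgeR (SE 0.054, adjusted p = 0.533). Of 12702 tested genes, 18.7% were higher and 18.1% lower in KO. Of the proximal tubule and epithelial markers, 20 of 22 were in the table. GGT1, a brush border enzyme, was well expressed (188 ± 9.99 TPM in KO, 191 ± 10.03 TPM in WT). LRP2, CUBN, AQP1 and CDH1 had at most 8 reads in any library, so these defining markers of the tubule and of epithelium were at or near 0 in both lines. Of the 11 of these markers that could be tested, 2 rose and 5 fell in KO (63.6% called), and their summed level was 1803 to 1872 TPM in KO and 2168 to 2333 TPM in WT. The keratin genes KRT7, KRT8 and KRT19 and the bicarbonate transporter gene SLC4A4 were among those that fell, and the part of this in the SNARE results was not tested.

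SNAP25 (NCBI gene 6616, chromosome 20) was near absent from WT cells and present in KO cells. It had 142, 121 and 140 reads in the KO libraries, against 3, 2 and 3 reads in the WT libraries. In TPM these were 8.97, 7.38 and 8.37 in KO and 0.19, 0.13 and 0.18 in WT. The groups were far apart, and each WT library lay at or under the floor of 3 reads. Summed over libraries, 403 reads in KO against 8 in WT gave a ratio of 51.0 after scaling to effective library size, with a 95% counting interval of 25.6 to 119 that covers counting error only. The fitted log2 fold change was 5.61 (SE 0.25), which for so few WT reads depends on the fit, and 16 of the 12702 tested genes had a higher one. In a bulk sample, more cells that express the gene and more RNA per cell cannot be told apart.

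The deposited transcript table assigned SNAP25 reads to 5 RefSeq models. NM_003081, the model with exon 5a, took 131.61, 112.8 and 121.34 estimated reads in the KO libraries, against 1.5, 1 and 3 in the WT libraries. That was 92.7%, 93.2% and 86.7% of the SNAP25 reads in the 3 KO libraries. The 3 models that GENCODE links to the exon 5b transcript (NM_130811, NM_001322903 and NM_001322904) took 3.14, 3.02 and 13.41 reads there, and KO replicate 3 held all 7 KO reads of NM_130811. XM_017028021, with no GENCODE link, took 7.24, 5.18 and 5.25 reads in KO and 0 in every WT library. Over the KO libraries together 365.8 of 403 reads went to the exon 5a model, 19.57 to exon 5b models and 17.67 to the unlinked one. In the WT libraries the 5a and 5b models shared 8 reads, too few for any split. The models share most of their exons and the reads over exon 5 itself are not given separately, so the assignment rests on the submitters' estimate.

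**Figure D1:**
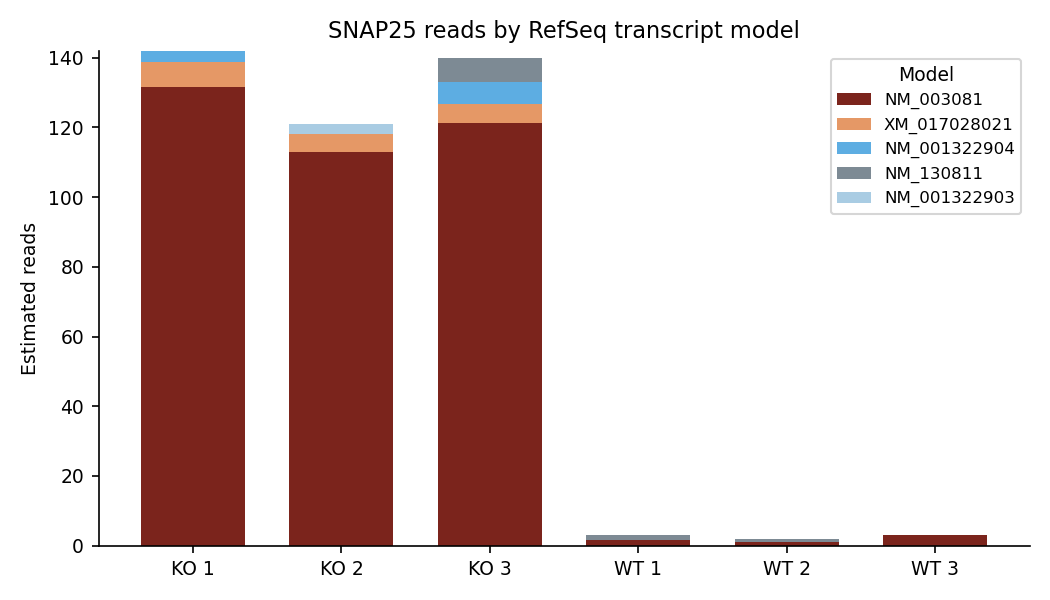
Estimated SNAP25 reads (vertical axis) in each KO and WT library, stacked by RefSeq transcript model. NM_003081, the exon 5a model, fills 86.7% to 93.2% of each KO bar, and the WT bars hold 2 or 3 reads.

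Among the SNAP proteins, which each give a pair of helices to the bundle, the other members moved little next to SNAP25. SNAP23, the widely expressed relative of SNAP25, had 57.5, 56.0 and 49.8 TPM in KO, against 52.4, 56.0 and 51.1 TPM in WT. The groups overlapped, with a log2 fold change of 0.07 (SE 0.060). SNAP47, a member without the palmitoylated linker of SNAP25, had 50.7, 47.1 and 47.5 TPM in KO, against 41.4, 47.0 and 40.7 TPM in WT. Every KO library was above every WT library, narrowly so for KO replicate 2 and WT replicate 2, and the log2 fold change was 0.23 (SE 0.064). The gene lies on chromosome 1, where the median over 1287 tested genes was 0.12. Its exons share 400 bases with JMJD4 on the other strand, and it had fractional reads in 6 of 6 libraries, so its count is less certain. SNAP23 and SNAP29 also share exonic bases with genes on the other strand, which are not in the table. SNAP29 had 13.4, 14.7 and 13.0 TPM in KO, against 15.1, 15.3 and 15.4 TPM in WT. The groups did not overlap in TPM but did in CPM, and the log2 fold change was -0.13 (SE 0.071).

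SNAP25 therefore made up a small part of the SNAP messages even in KO cells. Its share of the summed TPM of the 4 SNAP genes was 6.61% ± 0.622 in KO and 0.151% ± 0.0353 in WT (SD, n = 3 each). SNAP23 held 43.6% ± 1.44 in KO and 47.6% ± 0.351 in WT, and SNAP47 held 38.8% ± 1.2 in KO and 38.5% ± 1.04 in WT. The sum itself was 124.8 ± 6.06 TPM in KO and 111.6 ± 5.92 TPM in WT, and SNAP25 at 8.24 ± 0.803 TPM accounted for a part of that gap.

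Of the syntaxins, STX4 and STX1A were lower in every KO library and STX3 was not. STX4, which serves constitutive fusion at the basolateral membrane of epithelial cells, had 31.0, 30.8 and 35.6 TPM in KO, against 40.4, 42.4 and 44.5 TPM in WT. The groups did not overlap, and the log2 fold change was -0.37 (SE 0.083). STX1A, the syntaxin of the synapse and the main partner of SNAP25, had 4.60, 4.81 and 4.36 TPM in KO, against 6.26, 5.77 and 5.72 TPM in WT. These groups did not overlap either, with 65, 76 and 71 reads in KO and 91, 91 and 90 in WT, and the log2 fold change was -0.34 (SE 0.14). STX3, the apical syntaxin of epithelia, had 65.9, 63.5 and 65.0 TPM in KO, against 67.8, 68.2 and 59.9 TPM in WT. The groups overlapped, with a log2 fold change of 0.01 (SE 0.054), and its exons share 335 bases with OR10V1 on the other strand and 172 with the pseudogene OR10Y1P on its own.

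The VAMP genes encode the vesicle side of the bundle, and their log2 fold changes lay between -0.10 and 0.24. VAMP2, the vesicle SNARE of the synapse, had 7.85, 8.94 and 8.23 TPM in KO, against 7.20, 6.95 and 7.49 TPM in WT. The groups did not overlap, with a log2 fold change of 0.24 (SE 0.11) on 130 to 153 reads in KO and 116 to 129 reads in WT. Its exons share 430 bases with AC129492.3, a protein-coding gene on the same strand that is not in the table, so reads of the pair cannot be told apart there. VAMP3, of recycling endosomes, had 122, 114 and 113 TPM in KO, against 120, 133 and 123 TPM in WT. Its log2 fold change was -0.10 (SE 0.052), and the groups overlapped in TPM but not in CPM, where KO replicate 1 at 118.7 and WT replicate 1 at 118.8 nearly touched. VAMP8, of late endosomes and secretory granules, had 89.8, 95.3 and 95.5 TPM in KO, against 95.6, 88.7 and 87.6 TPM in WT. The groups overlapped, with a log2 fold change of 0.05 (SE 0.080).

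**Figure D2:**
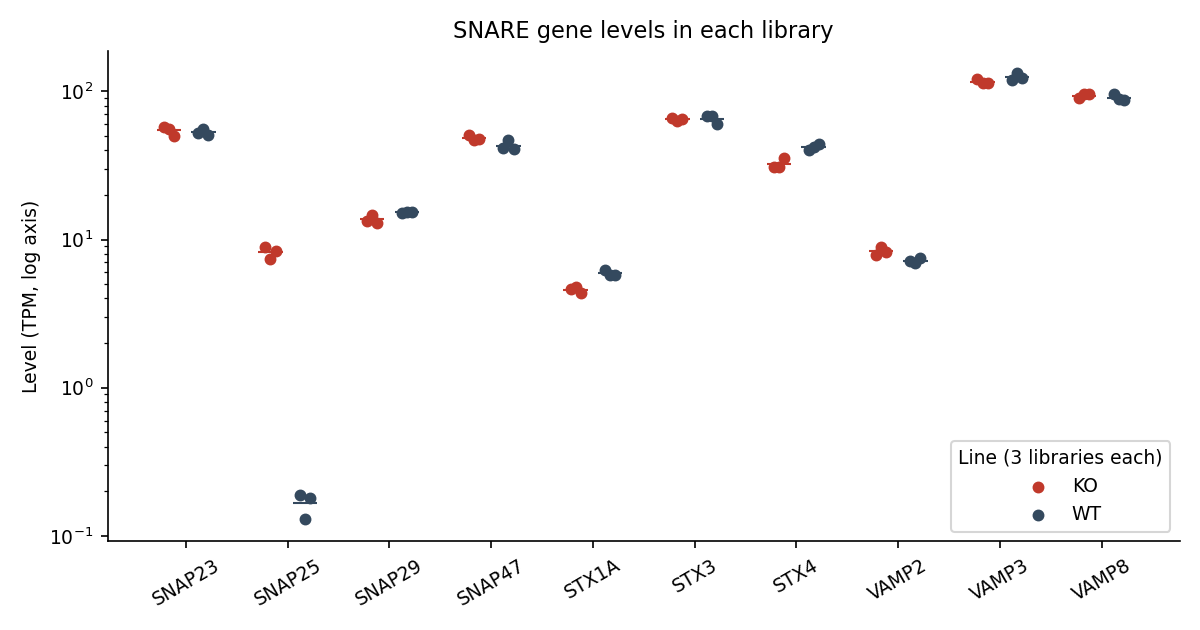
Level of each of the 10 SNARE genes (TPM, log axis) in every KO and WT library, with a line at each group mean. SNAP25 lies between 7.38 and 8.97 TPM in KO and between 0.13 and 0.19 TPM in WT, whereas for the other 9 genes the groups lie close together.

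The order of levels was almost the same in both lines apart from SNAP25. In KO it ran from VAMP3 (116 ± 4.68 TPM) over VAMP8, STX3, SNAP23, SNAP47, STX4, SNAP29, VAMP2 and SNAP25 to STX1A (4.59 ± 0.225 TPM). Neighbours in this order overlapped for SNAP23 with SNAP47 and for VAMP2 with SNAP25. In WT it ran from VAMP3 (125 ± 6.89 TPM) through the same genes to VAMP2, STX1A (5.92 ± 0.298 TPM) and last SNAP25 (0.167 ± 0.0322 TPM), and SNAP47 overlapped STX4. SNAP25 thus stood last of 10 in WT and above STX1A in KO, at the level of VAMP2 (8.34 ± 0.553 TPM in KO).

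At an adjusted p under 0.05 in edgeR, 4 of the 10 genes were called, against 36.8% of all tested genes. In CPM 6 of 10 did not overlap between the groups, against 46.3% of tested genes. Both counts come from the contrast that chose SNAP25, so nothing is read from them. The median absolute log2 fold change was 0.18 over the 10 genes and 0.15 over all tested genes. In the 6 fits that left out 1 library, the STX1A log2 fold change lay between -0.40 and -0.29, again a description with no test. STX1A was among the 4 called, but its call was kept in 0 of these 6 fits and was also lost in DESeq2.

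The model split of the other 9 genes was mostly alike in both lines, STX1A apart. NM_003825 held 96.6% of SNAP23 reads in KO and 95% in WT, and NM_004604 held 85.1% of STX4 reads in KO and 85.5% in WT. STX4 model NM_001272095 had 16.84, 19.69 and 18.89 reads in KO, against 38.35, 37.45 and 35.3 in WT. STX1A model NM_001165903 had 12.55, 0 and 0 reads in KO, against 42.51, 8.01 and 43.68 in WT. WT replicate 2 stood apart there, and the groups overlapped. Pooled over libraries, NM_001165903 held 5.92% of STX1A reads in KO and 34.6% in WT. STX1A model NM_004603 held 81.6% in KO and 54.8% in WT, with single libraries from 59.5% to 92% in KO and from 35.1% to 85.7% in WT. XM_017002841, a minor model of VAMP3, had 26.09, 20.79 and 25.18 reads in KO, against 14.93, 16.32 and 11.98 in WT.

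A further 30 SNARE genes of the endoplasmic reticulum, Golgi and endosomes were all in the table, and 28 could be tested. Of these, 4 rose and 3 fell in KO, or 25% called against 36.8% of all tested genes, and their median log2 fold change was 0.01 against -0.0006 over all tested genes. STX11, an atypical syntaxin of immune secretion, had 55, 62 and 76 reads in KO, against 199, 190 and 182 reads in WT. It fell to 1.59 ± 0.232 TPM in KO, against 4.8 ± 0.0819 TPM in WT (log2 fold change -1.55, SE 0.12, adjusted p = 4.95e-11 in edgeR), and was the SNARE with the steepest fall among those tested. STX18, of fusion at the endoplasmic reticulum, rose to 42.4 ± 1.42 TPM in KO, against 28.8 ± 3.23 TPM in WT (log2 fold change 0.59, SE 0.072, adjusted p = 1.37e-07 in edgeR). STX18 lies in a run of genes on chromosome 4, from ZNF595 to EXOC1, whose median log2 fold change was 0.52 over 151 tested genes, and the part of that shift in its change was not tested. GOSR2, a Golgi SNARE, fell to 61.8 ± 1.96 TPM in KO, against 71.0 ± 2.04 TPM in WT (log2 fold change -0.19, adjusted p = 0.00932 in edgeR).

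The other 4 calls were each lost in at least 1 of the fits that left out 1 library. STX5, a Golgi syntaxin, changed by 0.25 on the log2 scale (adjusted p = 0.0106 in edgeR), which missed the threshold without KO replicate 2 (0.0725) or WT replicate 1 (0.0661). YKT6, which also acts in autophagosome fusion, had 88.7 ± 2.42 TPM in KO and 100.4 ± 3.92 TPM in WT (log2 fold change -0.15, adjusted p = 0.0394 in edgeR). It missed the threshold without KO replicate 1 (0.132), KO replicate 2 (0.0675) or WT replicate 3 (0.24). VAMP4, of the trans-Golgi, changed by 0.30 on the log2 scale (adjusted p = 0.0381 in edgeR) and missed it without KO replicate 1 (0.175), KO replicate 2 (0.108), WT replicate 2 (0.0799) or WT replicate 3 (0.131). TSNARE1 changed by 0.22 on the log2 scale (adjusted p = 0.0454 in edgeR) and missed it without any 1 of the 6 libraries (0.0517 to 0.139). STX7 and STX16, the most abundant SNAREs of this list that were not called, had log2 fold changes of -0.02 (SE 0.056) and 0.01 (SE 0.052). STX17, the autophagosome syntaxin that pairs with SNAP29 and VAMP8, had 12.4 ± 1.02 TPM in KO and 11.98 ± 0.578 TPM in WT (log2 fold change 0.08, SE 0.067, adjusted p = 0.369 in edgeR) and was named after its value was seen.

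**Figure D3:**
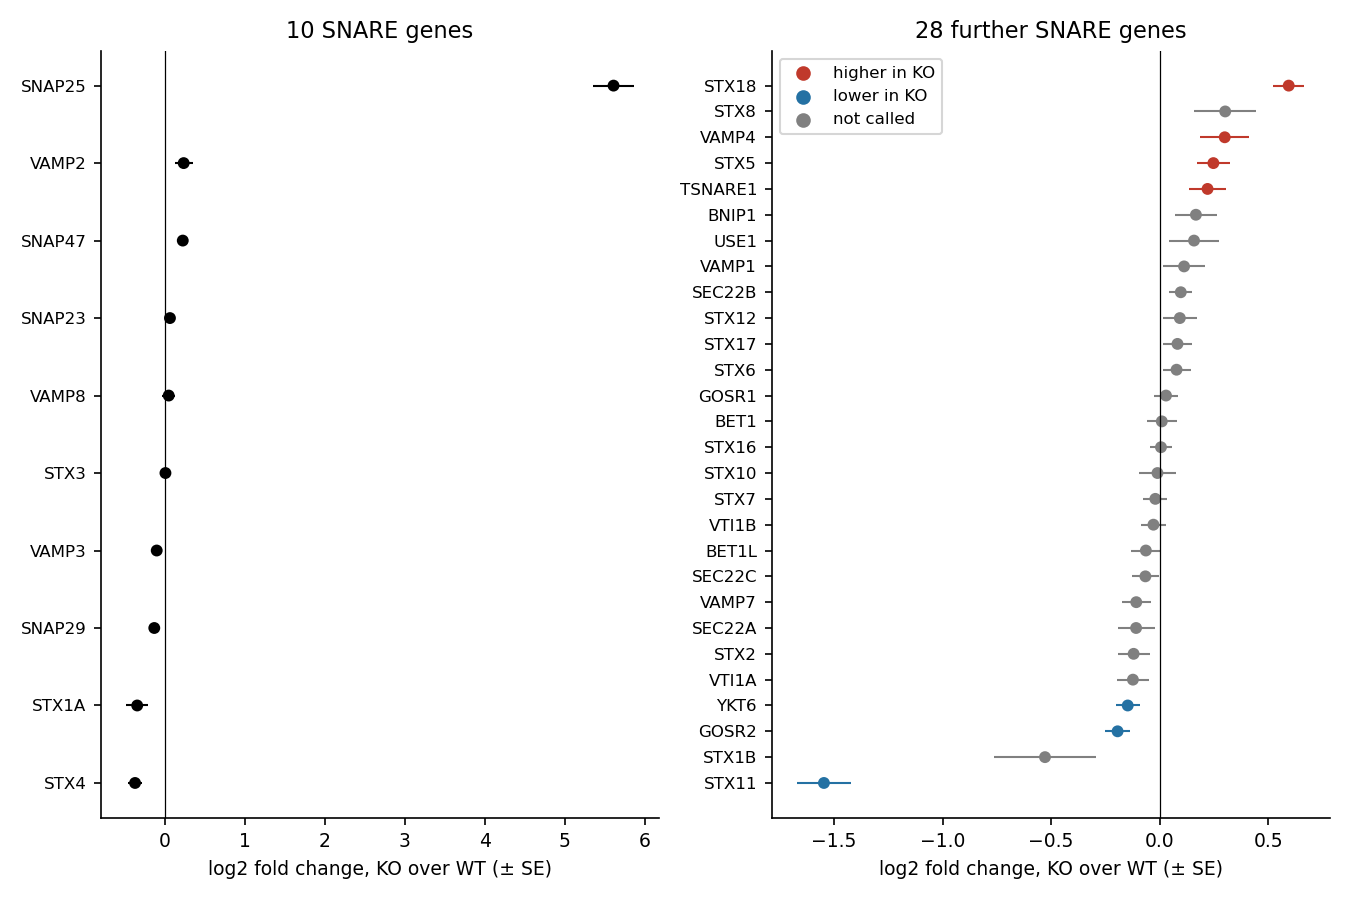
Log2 fold change, KO over WT, with SE bars for the 10 SNARE genes (left, uncoloured because they were chosen from this contrast) and for 28 further SNARE genes (right, coloured by the edgeR call). SNAP25 stands at 5.61 and the other 9 between -0.37 and 0.24, while STX11 at -1.55 is the lowest on the right.

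Other genes encode the proteins that assemble SNARE bundles and take them apart. Of 31 genes on this list 27 were in the table and 24 tested, and 4 rose and 7 fell (45.8% called against 36.8%), with a median log2 fold change of -0.006. UNC13A, a priming factor of the synapse, had 8, 8 and 9 reads in KO, against 61, 52 and 67 reads in WT (log2 fold change -2.81, SE 0.25, adjusted p = 3.62e-10 in edgeR). STXBP5, the tomosyn that competes for syntaxin and SNAP25, fell to 7.26 ± 0.697 TPM in KO, against 10.8 ± 0.686 TPM in WT (log2 fold change -0.60, adjusted p = 3.92e-08 in edgeR). Among the relatives of UNC13A, UNC13D fell by 0.44 and UNC13B rose by 0.36 on the log2 scale. NSF, the ATPase that takes spent bundles apart, was named after its value was seen. NSF, which has a near copy that can share its reads, fell to 37.3 ± 2.47 TPM in KO, against 45.1 ± 2.21 TPM in WT (adjusted p = 0.00111 in edgeR). Of the abundant genes that were not called, NAPA, the adaptor of NSF, had a log2 fold change of -0.01 (SE 0.058) and SNAPIN one of 0.01 (SE 0.073).

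Synaptotagmins, some of which are the calcium sensors of exocytosis, were listed with the synaptotagmin-like Rab effectors. Of 27 listed, 21 were in the table and 11 tested, and 1 rose and 6 fell (63.6% called against 36.8%), with a median log2 fold change of -0.36. SYTL2, a Rab27 effector that docks secretory vesicles, had 38, 36 and 33 reads in KO, against 416, 419 and 368 reads in WT. It fell to 1.18 ± 0.267 TPM in KO, against 19.2 ± 1.78 TPM in WT (log2 fold change -3.47, SE 0.12, adjusted p = 4.83e-19 in edgeR). SYT1, the main calcium sensor for SNAP25 complexes in neurons, fell to 1.003 ± 0.2495 TPM in KO, against 1.93 ± 0.320 TPM in WT (log2 fold change -0.93, adjusted p = 0.000133 in edgeR). SYT16 fell by 1.11 on the log2 scale, and SYTL1, another Rab27 effector, rose by 0.66. SYTL3 and SYT14 were not called, with log2 fold changes of -0.06 (SE 0.059) and -0.07 (SE 0.076).

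The vesicle tether and its Rab proteins had 3 genes higher and 5 lower of 24 tested (33.3% called against 36.8%), with a median log2 fold change of -0.05. RAB27B, a secretory Rab, fell to 0.697 ± 0.167 TPM in KO, against 1.70 ± 0.0603 TPM in WT (log2 fold change -1.10, adjusted p = 3.47e-06 in edgeR). RALB and EXOC6B fell by 0.36 and 0.38 on the log2 scale. EXOC2, an exocyst subunit, rose to 55.4 ± 1.66 TPM in KO, against 39.1 ± 1.22 TPM in WT (log2 fold change 0.45, adjusted p = 7.83e-08 in edgeR). EXOC2 lies in a run of genes on chromosome 6, from DUSP22 to ZNF451, whose median log2 fold change was 0.53 over 354 tested genes, and the part of that shift in its change was not tested. RAB10 and RAB3GAP1 were not called, at -0.03 (SE 0.049) and 0.00 (SE 0.052) on the log2 scale.

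SNAP25 protein is anchored by palmitoylation and kept folded by chaperones, and none of the 10 genes listed for these steps rose. Of the 10, 3 fell (30% called against 36.8%), with a median log2 fold change of -0.08. HSPA8, the constitutive HSP70, which has many pseudogenes, fell to 1239 ± 21.1 TPM in KO, against 1546 ± 9.16 TPM in WT (log2 fold change -0.29, adjusted p = 9.01e-06 in edgeR). The palmitoyl transferases ZDHHC3 and ZDHHC13 fell by 0.17 and 0.25 on the log2 scale. ZDHHC3 missed the threshold without KO replicate 2 (adjusted p = 0.0823 in edgeR), and ZDHHC13 without KO replicate 2 (0.111) or WT replicate 1 (0.0774). SGTA, a co-chaperone, was not called, at -0.08 (SE 0.059). Of 12 genes for the docking of autophagosomes to lysosomes, 0 rose and 1 fell (8.33% called against 36.8%), with a median log2 fold change of 0.01. VPS18 of the tethering complex changed by -0.20 on the log2 scale (adjusted p = 0.0178 in edgeR), and missed the threshold without KO replicate 1 (0.0757) or WT replicate 3 (0.123). RAB7A and VPS41 were not called, at -0.03 (SE 0.048) and 0.05 (SE 0.055).

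**Figure D4:**
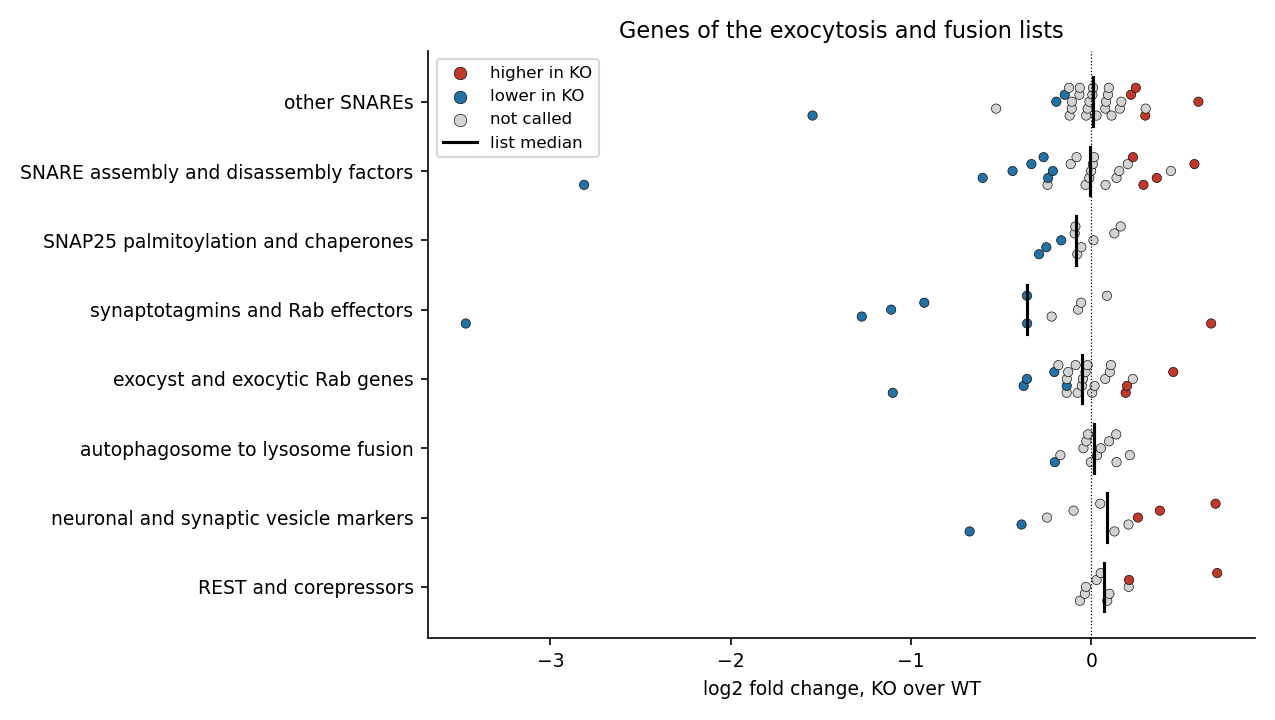
Log2 fold change, KO over WT, of each tested gene on 8 lists around SNARE function (1 point per gene, coloured by the edgeR call, bar at the list median). The list of synaptotagmins and Rab effectors has the lowest median, -0.36, with SYTL2 at -3.47, and the other 7 medians lie between -0.08 and 0.09.

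SNAP25 is used as a neuronal marker, so other neuronal genes were set beside it. Of 35 listed, 29 were in the table, 12 of these had at most 3 reads in every library, and 10 could be tested. The vesicle protein genes SYP and SYN1 had at most 4 and 1 reads in any KO library, against up to 7 and 9 in the WT libraries. SV2A, STMN2 and RBFOX3 had at most 1 read in any of the 6 libraries. The summed level of the list was 2593 to 2652 TPM in KO and 1741 to 1815 TPM in WT, and most of it was UCHL1, a ubiquitin hydrolase that HK-2 cells express highly, at 2290 ± 22.1 TPM in KO and 1441 ± 26.9 TPM in WT. UCHL1 lies in the same run of chromosome 4 as STX18. Of the tested genes 3 rose and 2 fell (50% called against 36.8%), with a median log2 fold change of 0.09. L1CAM and ENO2 rose by 0.38 and 0.26 on the log2 scale, and TUBB3 had a log2 fold change of -0.39. GAD1 and INA were not called, at 0.21 (SE 0.091) and 0.05 (SE 0.076).

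REST is a repressor of neuronal genes in cells outside the nervous system. Named after its value was seen, it had 18.8, 17.04 and 16.19 TPM in KO, against 19.11, 18.01 and 17.65 TPM in WT (log2 fold change -0.04, SE 0.059, adjusted p = 0.681 in edgeR). The groups overlapped. Of REST and its 9 listed corepressors, 2 rose and 0 fell (20% called against 36.8%), with a median log2 fold change of 0.07. EHMT2, a histone methyltransferase, rose to 75.4 ± 2.86 TPM in KO, against 47.7 ± 1.84 TPM in WT (adjusted p = 3.25e-11 in edgeR), and lies in the same run of chromosome 6 as EXOC2. RCOR3 changed by 0.21 on the log2 scale (adjusted p = 0.0116 in edgeR) and missed the threshold without WT replicate 3 (0.0627). HDAC1 and HDAC2 were not called, at 0.09 (SE 0.047) and 0.05 (SE 0.051). Of 14 markers of fibroblasts, endothelium and leukocytes, 8 were in the table and 2 tested. Of these 2, 0 rose and 1 fell (50% called against 36.8%). COL1A1 fell to 5.73 ± 0.322 TPM in KO, against 7.87 ± 1.01 TPM in WT. CD68 was not called, with a log2 fold change of 0.06 (SE 0.080). The summed level was 36.4 to 37.9 TPM in KO and 34.2 to 41.3 TPM in WT. Most of it was CD68, at 30.8 ± 0.603 TPM in KO and 30.1 ± 2.65 TPM in WT.

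Of the tested genes next to SNAP25 on chromosome 20, none had a log2 fold change above 0.26. The 5 measured genes on each side were BMP2, TMX4, PLCB1, PLCB4 and ANKEF1 before it and MKKS, SLX4IP, JAG1, BTBD3 and SPTLC3 after it, ordered as on GRCh38 in the NCBI table. Of the 8 that could be tested, the nearest on each side were ANKEF1, with a log2 fold change of 0.26 (SE 0.090), and MKKS, with -0.03 (SE 0.065). ANKEF1 passed in edgeR (adjusted p = 0.021), but not without KO replicate 1 (0.0523), WT replicate 2 (0.127) or WT replicate 3 (0.0678). JAG1, a Notch ligand, fell to 39.6 ± 1.85 CPM in KO, against 144 ± 3.51 CPM in WT (log2 fold change -1.87, adjusted p = 6.78e-20 in edgeR). PLCB4, a phospholipase, changed by -0.38 on the log2 scale (adjusted p = 8.53e-07 in edgeR). BMP2 had 4, 4 and 2 reads in KO and 0 in every WT library, too few to be tested. The median over the 339 tested genes of chromosome 20 was -0.03.

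**Figure D5:**
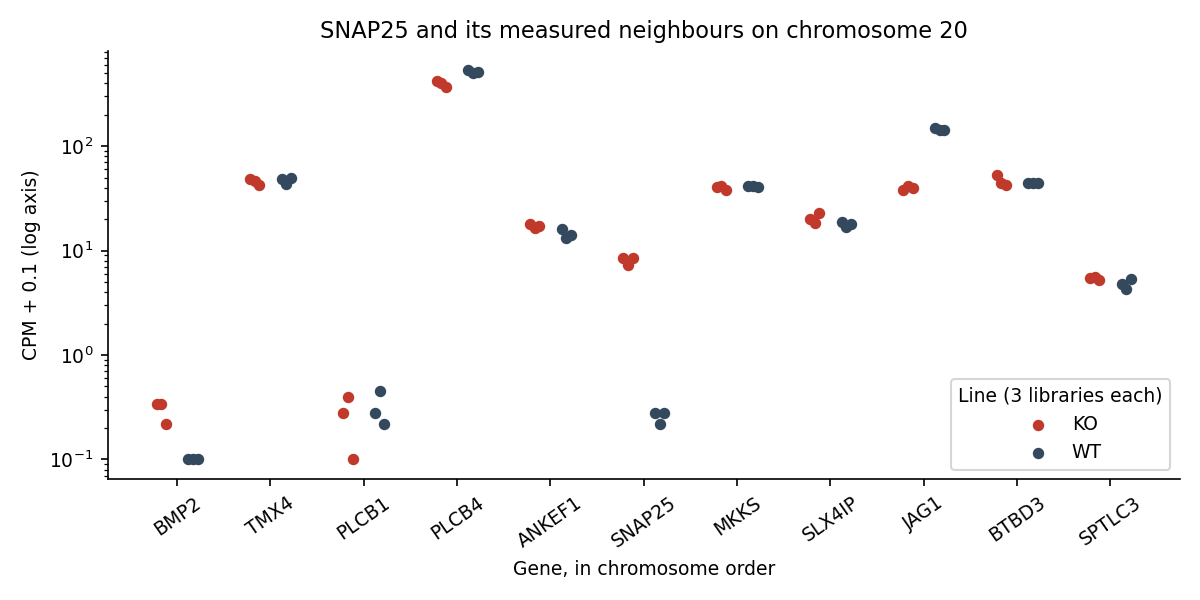
Level (CPM + 0.1, log axis) of SNAP25 and the 5 measured genes on each side of it, in chromosome order, for each KO and WT library. SNAP25 is far higher in KO, JAG1 is lower in KO at 39.6 against 144 CPM, and BMP2 and PLCB1 are near 0 in both lines.

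The 5 tested genes whose profile over the 6 libraries was most like that of SNAP25 were CRACD, CHST9, PCDHGB1, CNTNAP3B and SLC27A6. Likeness was the Euclidean distance between log2 CPM values centred on each gene's mean, with a prior count of 2, and it ran from 0.361 for CRACD to 0.674 for SLC27A6. CRACD, a regulator of actin capping, had 218, 174 and 192 reads in KO, against 6, 3 and 4 reads in WT. CHST9, a sulfotransferase, had 62, 63 and 53 reads in KO and 0 in every WT library. PCDHGB1 and CNTNAP3B share sequence with close relatives, so their reads are less certain. SLC27A6, a fatty acid transporter, had 57, 38 and 60 reads in KO, against 0, 0 and 1 in WT. With 2 groups of 3 libraries this likeness says little more than that a gene was near 0 in WT and present in KO.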

How the data were processed

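The submitters' processing notes name GRCh37 as the build and list, with no role or order, HISAT2 2.0.1, Cuffdiff 2.2.1, cutadapt 1.9.1, bcl2fastq 2.17.1.14 and FastQC 0.10.1. No source used here gives the counting tool, strandedness or library kit. The deposited gene and transcript tables give estimated counts, TPM and FPKM per library, as computed by the authors per the file headers. Between 13% and 14% of estimated counts were not whole, and all were rounded.

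Genes were kept by filterByExpr (minimum count 10, minimum total 15; 12702 genes) and tested with edgeR 4.0.16 in R 4.3.3 (TMM, robust quasi-likelihood test of KO against WT, Benjamini-Hochberg over all tested genes, threshold 0.05). SE is the absolute log2 fold change over the root of the F statistic. Alternatives used DESeq2 1.42.0 and limma 3.58.1. Replicate libraries differed by more than sampling noise in every pair, and scripts were tested on simulated data. Gene order came from the NCBI table for GRCh38 (16063 genes matched), and exon sequences from GENCODE.

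The members and lists were chosen with earlier results of these data known, as were the runs on chromosomes 4 and 6. Named were the 10 members, RETREG1, TAX1BP1, every other SNARE called, up to 4 called genes (by adjusted p) and 2 abundant uncalled ones per list, the neighbours and the nearest profiles. Some genes that this rule names are not reported here.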

Additional observations from a re-analysis of the deposited data

How the results depend on the processing

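The SNAP25 log2 fold change lay between 5.44 and 5.70 when each library was left out, a description with no test, since the gene was chosen from this contrast. For SNAP47 it lay between 0.19 and 0.28 in the same fits, likewise with no test. The number of members called was 3 to 4 without 1 library, and nothing is read from it, since SNAP25 was chosen from this contrast. The number of genes called in KO against WT was 4679, with 3801 to 4772 without 1 library. Of the further SNARE genes 7 were called, against 4 in DESeq2 and 3 to 6 without 1 library (4 without KO replicate 1, 3 without KO replicate 2 and 4 without WT replicate 3, where fewer samples entered). The genes of the other 7 lists gave 37 calls, with 32 to 39 without 1 library. Of 44 called list genes, 30 kept the call in every fit without 1 library. No called gene of the lists changed sign in the alternatives that could test it (15, or 14 for 8 genes that the filter of 5 CPM left out), whereas the uncalled STX3, STX7, STX16, NAPA, SNAPIN, RAB3GAP1, VPS41, INA, REST, MKKS and GGT1, all near 0, did in at least 1, and no scaling moved the median of all genes by over 0.1. Same-numbered libraries did not deviate together in all pairs (correlations 0.156, 0.0134 and 0.113), so the numbers were not taken as pairs. A replicate block gave 5947 calls over all genes, 5 members, 8 further SNARE genes and 49 list genes; all 3 KO libraries and 2 of 3 WT libraries correlated best with their own number, a hint from the data and not from the design. Depth limits SNAP25 in WT (at most 3 reads per library) and STX1A (65 to 91 reads).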
